A study of Arabidopsis thaliana with 6 samples.

Results

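The genes described here are 4 CC-type glutaredoxin genes of Arabidopsis thaliana, the thale cress, a model plant. AT4G15680, AT4G15690 and AT4G15700 follow each other directly on chromosome 4, and AT3G62950 lies in a second group of such genes on chromosome 3. Each was represented by 1 probe set paired with no other gene, so that 4 of the 22746 probe sets compared are members. They were selected on their measured log2 difference between atrap and WT leaves in these same arrays, so that their own values are given as a description without a test. RNA came from rosette leaves of plants 3 weeks old, either carrying the mutation named atrap or wild type (WT), grown untreated at 23 °C with 12 h of light a day. Each genotype had 3 Affymetrix arrays, labelled as biological replicates. The labels give no locus, allele, line or accession for the mutation or the wild type, and they do not say how many plants an array stands for. All values are log2 expression values made with RMA, a method that corrects background, equalises the arrays and summarises the probes of each set, so that differences of dim probe sets come out too small.

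Glutaredoxins are small oxidoreductases that use glutathione to reduce disulfides or glutathione-bound cysteines in other proteins. The classes are named after the residues at the active site: the CPYC and CGFS classes occur widely among organisms, while the CC class, with adjacent cysteines, is known from land plants. Several CC-type proteins of Arabidopsis, also called ROXY proteins, bind TGA transcription factors in the nucleus and can recruit TOPLESS corepressors, and ROXY1 and ROXY2 act in petal and anther development. Transcripts of several genes of the class are known to respond to nitrate and to cytokinin, a growth hormone.

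The gene table gives RAP (AT2G31890) the synonym ATRAP, and its protein acts in the maturation of plastid ribosomal RNA. RAP read 6.72, 6.35 and 6.51 in the atrap arrays, against 7.87, 7.44 and 7.76 in the WT arrays. It was lower in every mutant array, with a log2 difference of -1.16 ± 0.14 (standard error, limma, adjusted p = 0.00741). The labelled tissue could be checked with 1 of 10 leaf mesophyll markers, RCA (Rubisco activase), which read 14.85 to 14.94 in atrap and 14.90 to 14.93 in WT. These readings lie close to the highest value of all, 15.01, and are not read as equal shares of mesophyll. The root hair genes EXPA7 and EXPA18, 2 of 6 root markers, read 5.33 to 5.89 in atrap and 5.13 to 5.92 in WT, and FMA, 1 of 4 guard cell markers, read 7.10 to 7.17 in atrap and 6.85 to 7.11 in WT. Of the phloem companion cell and flower organ lists, 0 genes had a probe set of 1 gene. The part of other cell types in the results below was not tested. In whole leaves, more RNA per cell and more cells of a type cannot be told apart. The poly-A spike-in controls averaged 6.44 to 6.59 in atrap and 6.75 to 7.06 in WT (log2, 24 probe sets), and the difference between the 3-prime and 5-prime actin controls was 2.28 to 2.31 in atrap and 2.61 to 2.68 in WT. Both moved with genotype, and their part in the differences below was not tested. Counting probe sets where an array departed by over 1 log2 unit from the other arrays of its genotype, themselves within 0.5 of each other, atrap replicate 2 lay above in 158 and below in 108, against 0 to 3 for the other mutant arrays in either direction. WT replicate 3 lay above its group in 191 probe sets and below in 6, and WT replicate 1 above in 3 and below in 42.

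The 3 chromosome 4 genes were higher in every atrap array than in any WT array. AT4G15680 read 9.05, 7.69 and 9.27 in atrap replicates 1, 2 and 3, against 6.73, 6.42 and 5.77 in WT replicates 1, 2 and 3. The groups were 0.96 apart at their nearest arrays, with atrap replicate 2 the lowest mutant and WT replicate 1 the highest wild type. Its mean was 8.67 ± 0.85 in atrap and 6.31 ± 0.49 in WT (log2, SD, n = 3 each), a difference of 2.36 ± 0.43 (standard error), or 5.14-fold. The standard errors given throughout are those of limma, which moves the spread of each probe set towards a value shared by all. For the 4 genes they come out smaller than the spread of their own arrays would give.

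AT4G15690, the next gene along the chromosome, read 7.89, 7.07 and 8.47 in the atrap arrays, against 6.63, 5.52 and 5.47 in the WT arrays. Again the lowest mutant array was replicate 2, and WT replicate 1 stood well above the other WT arrays and the groups were 0.44 apart. The mean was 7.81 ± 0.71 in atrap and 5.87 ± 0.66 in WT (log2, SD, n = 3 each), a difference of 1.94 ± 0.42 (standard error), or 3.83-fold.

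AT4G15700, the last of the trio, read 6.80, 5.45 and 7.09 in the atrap arrays, against 5.32, 4.49 and 4.23 in the WT arrays. Atrap replicate 2 and WT replicate 1 were only 0.12 apart, while the other mutant arrays lay well above all WT arrays. The mean was 6.45 ± 0.88 in atrap and 4.68 ± 0.57 in WT (log2, SD, n = 3 each), a difference of 1.77 ± 0.45 (standard error), or 3.40-fold.

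AT3G62950, on chromosome 3, did not separate the genotypes. It read 6.44, 3.99 and 6.79 in the atrap arrays, against 4.88, 4.58 and 3.64 in the WT arrays. Mutant replicates 1 and 3 were above every WT array, but replicate 2 lay within the WT range, below 2 of the 3 WT arrays. The mean was 5.74 ± 1.53 in atrap and 4.37 ± 0.65 in WT (log2, SD, n = 3 each), a difference of 1.37 ± 0.71 (standard error), or 2.59-fold. The difference was 2.25 without atrap replicate 2, and 1.02 and 0.85 without atrap replicates 1 and 3. Its WT values are near the low end of the table, which runs from 3.12 to 15.01, where RMA compresses differences.

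Over all probe sets, the groups did not overlap in 35.6%, and 19.1% had every atrap array above every WT array. Of the 4 genes, 3 did and 1 overlapped, and because the genotype difference chose them, nothing is read from that count. The median of their differences was 1.85, beside 0.03 over all probe sets compared. The other differences moved less than that of AT3G62950 when single arrays were left out: AT4G15680 ran from 2.06 to 2.85, AT4G15690 from 1.61 to 2.32 and AT4G15700 from 1.44 to 2.27. In each of these ranges the low end came without atrap replicate 3. The 3 chromosome 4 genes are paralogs. The probe set names of all 4 genes carry no mark of probes shared between genes, and cross-hybridisation among the paralogs was not tested.

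**Figure D1:**
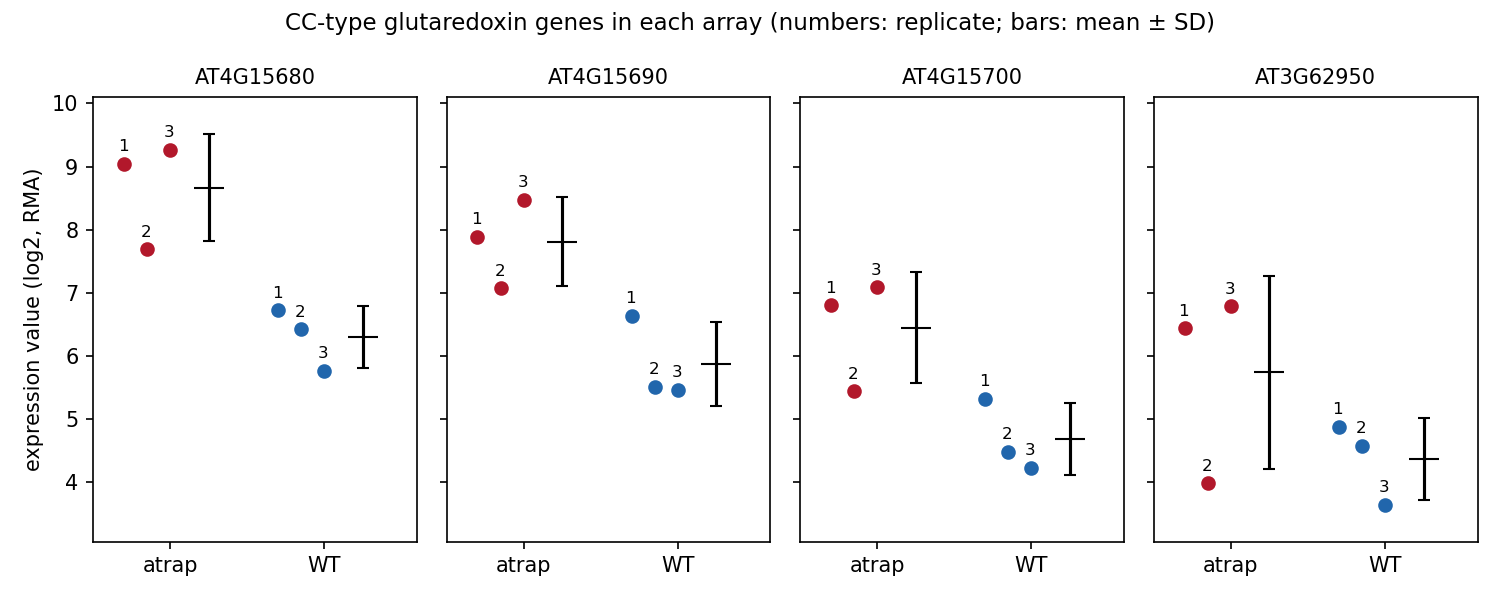
Expression value (log2, RMA) of the 4 genes in each array, atrap left and WT right, with the replicate number above each point and the mean ± SD (n = 3) beside it. Atrap replicate 2 is the lowest mutant array in all 4 panels, and for AT3G62950 it lies at 3.99, inside the WT range of 3.64 to 4.88.

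The 4 genes varied together within each genotype. Atrap replicate 2 was the lowest mutant array and atrap replicate 3 the highest for 4 of 4, and WT replicate 1 was the highest WT array and WT replicate 3 the lowest for 4 of 4. Over all probe sets these places were taken in 38.8%, 34.2%, 43.6% and 39.0%. Among the 13 other CC-type genes they were taken in 6, 6, 9 and 8, so that the WT order is not particular to the 4. The deviation of atrap replicate 2 from the mutant mean was -0.98 for AT4G15680, -0.74 for AT4G15690, -1.00 for AT4G15700 and -1.75 for AT3G62950. WT replicate 1 deviated from the WT mean by 0.42, 0.76, 0.64 and 0.52 in the same order of genes. The spread between mutant arrays was larger than that between WT arrays for all 4, most for AT3G62950, with a range of 2.80 in atrap and 1.24 in WT. With 3 arrays a genotype, that difference in spread was not tested.

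The order of the WT arrays was unlike that of most probe sets with a wide span between WT arrays. Among the 491 probe sets whose WT arrays spanned at least 1 log2 unit, WT replicate 3 was the highest in 82.5% and the lowest in 6.11%, whereas the 4 genes were all lowest there. WT replicate 1 was the highest in 6.92% of those probe sets. The span of the WT arrays was at least 1 for AT4G15690, AT4G15700 and AT3G62950 and 0.96 for AT4G15680. In the mutant, 342 probe sets spanned at least 1, and atrap replicate 2 was the lowest in 38.9% of them and the highest in 59.9%. The actin difference of atrap replicate 2 was 2.31, against 2.30 and 2.28 in the other mutant arrays.

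Correlations between the genes describe how far they kept in step. They rest on 6 arrays of shared RNA, and the genotype difference enters them. Over the 6 arrays Pearson's r ran from 0.97 to 0.98 among the chromosome 4 genes and from 0.84 to 0.92 between them and AT3G62950. After each genotype's mean was removed, r was 0.87 to 0.96 among the chromosome 4 genes. Between AT3G62950 and AT4G15680, AT4G15690 and AT4G15700 it was 0.99, 0.83 and 0.95, a range that overlaps that among the chromosome 4 genes.

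**Figure D2:**
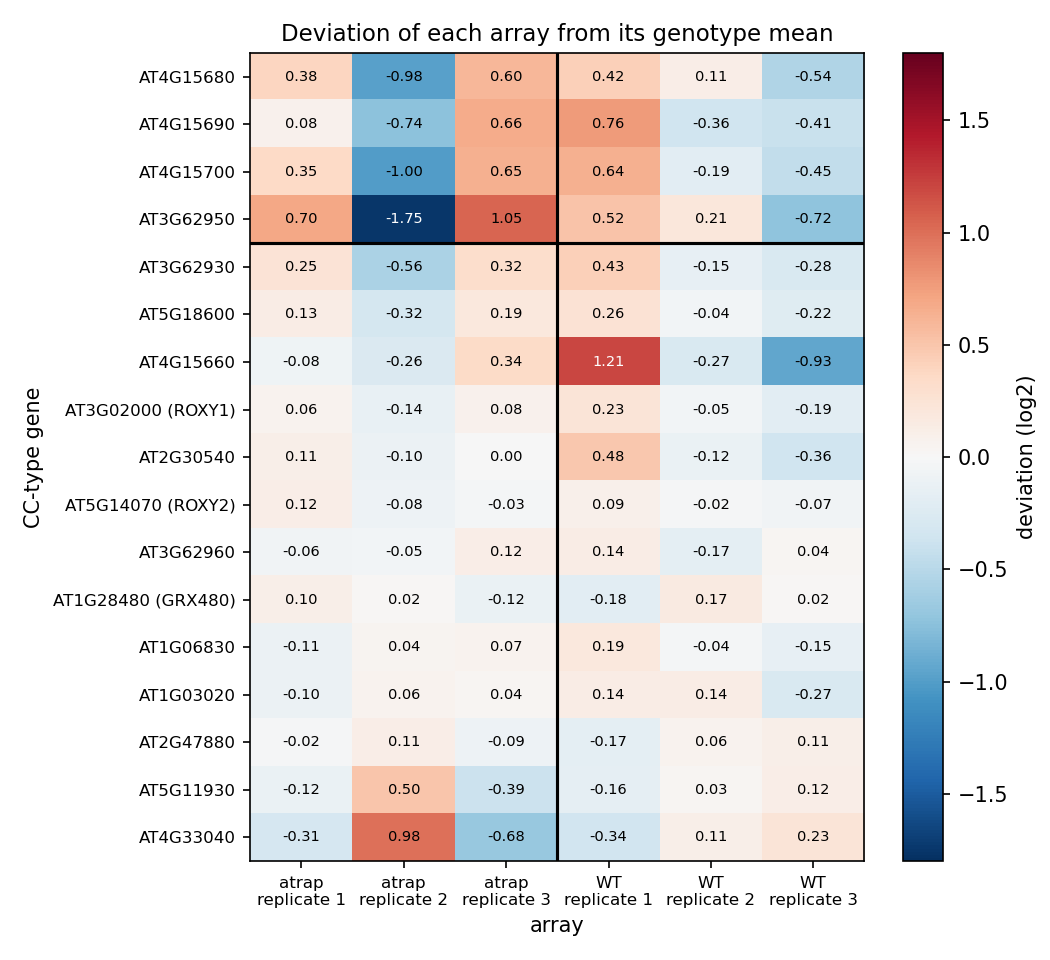
Deviation of each array from the mean of its genotype (log2, colour and number) for the 17 measured CC-type genes, with atrap arrays left of WT arrays and AT4G15680, AT4G15690, AT4G15700 and AT3G62950 above the line. Atrap replicate 2 runs from -1.75 to -0.74 in those 4 genes and is positive, at 0.98 and 0.50, in AT4G33040 and AT5G11930.

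The rest of the CC class shows whether the whole class moved. The class list holds 21 genes, of which 17 had a probe set of 1 gene: the 4 genes and 13 others. Class membership of loci without a gene name was assigned from general knowledge of the family, since the gene table names only GRX480, ROXY1 and ROXY2 among the 13. As background, 13.1% of all probe sets had an adjusted p under 0.05 (limma), 6.70% higher and 6.41% lower in atrap. Of the 13 other CC-type genes 2 rose, 1 fell and 10 did not pass, with a median difference of 0.08. Every atrap array was above every WT array for 3 of the 13 and below for 2, beside 19.1% and 16.5% over all probe sets.

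AT3G62930, which lies beside AT3G62950 with 1 gene between them, rose. It read 7.30, 6.49 and 7.37 in the atrap arrays, against 6.23, 5.65 and 5.52 in the WT arrays. The groups did not overlap, and replicate 2 was again the lowest mutant array and WT replicate 1 the highest WT array. The difference was 1.25 ± 0.27 (standard error), or 2.38-fold (limma, adjusted p = 0.0286). AT2G30540 rose too, at 8.47, 8.26 and 8.36 in atrap, against 7.93, 7.34 and 7.09 in WT. Its mutant arrays were within 0.21 of each other, and the difference was 0.91 ± 0.20 (standard error), or 1.88-fold (limma, adjusted p = 0.0297).

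AT5G11930 fell. It read 5.77, 6.39 and 5.50 in the atrap arrays, against 7.02, 7.21 and 7.30 in the WT arrays. Replicate 2 was here the highest mutant array, and the groups were 0.63 apart. The difference was -1.29 ± 0.21 (standard error, limma, adjusted p = 0.0144), a level 2.45-fold lower in atrap. AT4G33040 read 7.54, 8.83 and 7.17 in atrap, against 8.31, 8.77 and 8.89 in WT, and did not pass (difference -0.81, limma, adjusted p = 0.228). Its mutant replicate 2 lay among the WT arrays, and without that array the difference was -1.30 and passed (limma, adjusted p = 0.0142). With any other single array left out, AT4G33040 did not pass (limma, adjusted p from 0.202 to 0.505). The arrays of AT5G11930 and AT4G33040 mirrored those of the 4 genes, with r of -0.97 and -0.94 to the mean of the 4 over the 6 arrays and -0.97 and -0.98 after the genotype means were removed. These correlations share arrays with everything above and are a description.

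AT4G15660 belongs to the same chromosome 4 cluster and is separated from AT4G15680 by AT4G15670, which had no probe set of 1 gene here. It read 7.93, 7.75 and 8.35 in the atrap arrays, against 7.73, 6.25 and 5.60 in the WT arrays. All mutant arrays were above all WT arrays by only 0.02, with WT replicate 1 close to the mutant level. The difference was 1.48 ± 0.49 (standard error) and did not pass (limma, adjusted p = 0.0907). Without WT replicate 1 it was 2.08 and passed (limma, adjusted p = 0.00529). With any other single array left out, AT4G15660 did not pass (limma, adjusted p from 0.114 to 0.242). AT5G18600 read 11.31, 10.86 and 11.37 in atrap, against 11.66, 11.36 and 11.19 in WT, with overlapping groups and a difference of -0.22 (limma, adjusted p = 0.436). Within the genotypes its arrays ran as those of the 4 genes did, with r of 0.98 after the genotype means were removed. This likeness did not follow the class: AT5G20500, a glutaredoxin outside the CC class, had r of 0.96. AT2G47880, a CC-type gene, had r of -0.88.

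GRX480, a CC-type protein that binds TGA factors and responds to salicylic acid, read 5.44, 5.36 and 5.22 in atrap, against 5.56, 5.92 and 5.76 in WT. Every mutant array was lower, and the difference of -0.41 did not pass (limma, adjusted p = 0.0541). Without WT replicate 1 it was -0.50 and passed (limma, adjusted p = 0.0242). With any other single array left out, GRX480 did not pass (limma, adjusted p from 0.0872 to 0.161). The flower genes ROXY1 and ROXY2 had differences of 0.25 and 0.03 (limma, adjusted p = 0.233 and 0.845). AT1G03020, AT2G47880, AT3G62960 and AT1G06830 had differences of 0.21, 0.16, 0.08 and -0.03, with adjusted p from 0.324 to 0.898 (limma), and overlapping groups in all 4. The count of 3 calls among the 13 was 0 without atrap replicate 1 or WT replicate 2, 1 without atrap replicate 3 or WT replicate 3, and 5 without WT replicate 1.

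**Figure D3:**
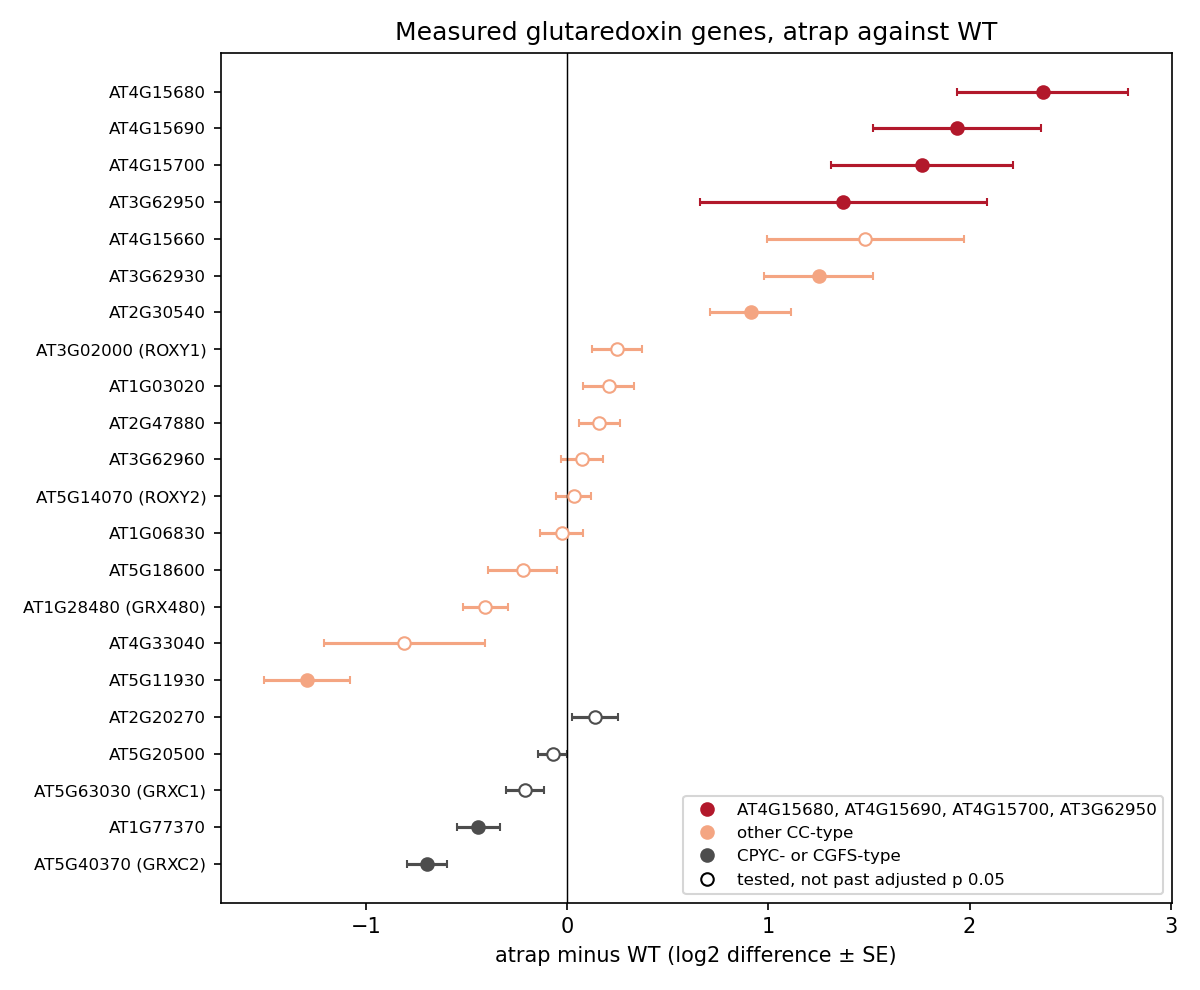
Difference atrap minus WT (log2 ± standard error, n = 3 arrays per genotype) for the 22 measured glutaredoxin genes, grouped into AT4G15680, AT4G15690, AT4G15700 and AT3G62950, the other CC-type genes and the CPYC- and CGFS-type genes. Open points are tested genes not past an adjusted p of 0.05, and the CC-type genes run from 2.36 for AT4G15680 to -1.29 for AT5G11930.

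Of 10 glutaredoxins of the CPYC and CGFS classes, 5 had a probe set of 1 gene. The gene table names only GRXC1 and GRXC2 among the 5. The counts below do not tell these classes apart, so nothing is read about the CGFS class alone. Of the 5, 0 rose, 2 fell and 3 did not pass, with a median difference of -0.21, where 6.41% of all probe sets fell. GRXC2, a cytosolic glutaredoxin, read 11.16, 11.31 and 11.28 in the atrap arrays, against 11.77, 11.99 and 12.07 in the WT arrays. It fell by 0.70 on the log2 scale (standard error 0.10, limma, adjusted p = 0.0104), with narrow groups that did not overlap. AT1G77370 read 9.06, 9.29 and 9.02 in atrap, against 9.45, 9.71 and 9.53 in WT. It fell by 0.44 on the log2 scale (standard error 0.11, limma, adjusted p = 0.0383). It did not pass when each array was centred on its median. GRXC1, AT5G20500 and AT2G20270 had differences of -0.21, -0.07 and 0.14 (limma, adjusted p = 0.186, 0.566 and 0.466). The 2 calls became 0 without atrap replicate 1 or WT replicate 2 and 1 without atrap replicate 3 or WT replicate 3.

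The neighbours of the 4 genes on the chromosomes were followed to see how far along each the differences reached. Of 26 neighbouring genes outside the CC class, 10 had a probe set of 1 gene, 1 of these rose and 9 did not pass. Over all probe sets, 6.70% rose. Directly beyond AT4G15700, AT4G15710 read 4.93, 5.02 and 4.62 in atrap, against 4.66, 4.53 and 4.30 in WT, a difference of 0.36 (limma, adjusted p = 0.123). On the other side of the cluster, AT4G15650 and AT4G15640 had differences of 0.12 and 0.23 (limma, adjusted p = 0.357 and 0.274). AT4G15650, with means of 4.07 in atrap and 3.95 in WT, is dim, as is AT4G15710. RMA compresses differences of dim probe sets, so that AT4G15650 and AT4G15710 do not mark where the differences end. AT4G15730, AT4G15740, AT4G15750 and AT4G15755 had differences from -0.03 to 0.24 (limma, adjusted p from 0.0649 to 0.814), all with WT values under log2 5.

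The neighbour that rose was AT4G15770, farther along the chromosome and the last measured gene of the stretch examined. It read 9.22, 9.10 and 9.40 in atrap, against 8.68, 8.42 and 8.35 in WT, a difference of 0.76 ± 0.12 (standard error, limma, adjusted p = 0.012). Its call was lost without atrap replicate 1 and without WT replicate 2, at adjusted p up to 0.0593 (limma). Around AT3G62950, the next gene AT3G62960, also of the CC class, had a mean of 5.88 in atrap and 5.81 in WT, with overlapping groups. AT3G62970 and AT3G62920 had differences of 0.07 and -0.26 (limma, adjusted p = 0.659 and 0.28).

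**Figure D4:**
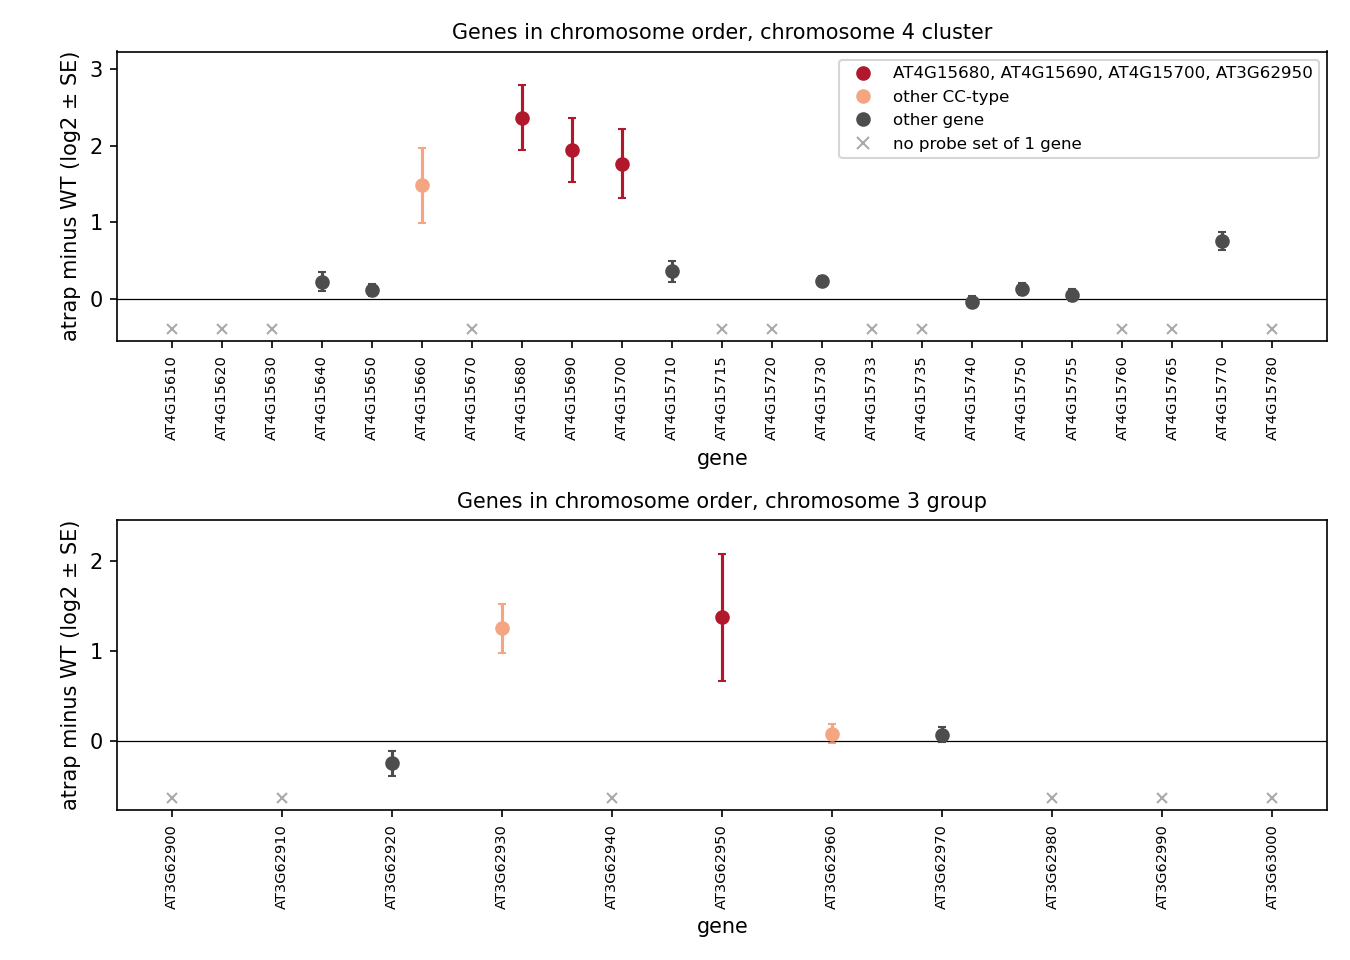
Difference atrap minus WT (log2 ± standard error, n = 3 arrays per genotype) for genes in chromosome order around the chromosome 4 cluster and around AT3G62950, with crosses along the bottom for genes without a probe set of 1 gene. The 4 measured CC-type genes of the chromosome 4 cluster lie at 1.48 to 2.36, and the genes directly on either side of it lie at 0.12 and 0.36. Those at 0.12 and 0.36 are dim, with WT means of 3.95 and 4.50, where RMA compresses differences.

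Transcripts with the array profile most like the mean of the 4 genes were sought among the 1010 other probe sets of 1 gene that spanned at least 1 log2 unit over the 6 arrays. The likeness is Pearson's r over 6 arrays, into which the genotype difference enters, and no p is given. The nearest were AT3G11450, AT3G56680, AT5G59330, UGT76C2, AT3G61100, AT3G62930, DIM1A and AT1G49650, with r from 0.984 to 0.995. AT3G62930 was thus both a CC-type gene and 1 of the 8 nearest of 1010. UGT76C2, an enzyme that conjugates cytokinins with glucose, read 8.76, 8.27 and 8.87 in atrap, against 8.23, 7.87 and 7.64 in WT. Its difference of 0.72 did not pass (limma, adjusted p = 0.0553). DIM1A, a methyltransferase of ribosomal RNA, read 9.09, 8.52 and 9.02 in atrap, against 8.36, 8.20 and 8.05 in WT, a difference of 0.68 (limma, adjusted p = 0.037). All 8 had replicate 2 as the lowest mutant array, which follows from how they were chosen. Their differences ran from 0.68 to 1.25, below those of the 4 genes.

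When the genotype means were removed first, the nearest of 2161 probe sets whose deviations had an SD of at least 0.2 were AT2G21920, AUR2, TBL45, AT5G56790, AT5G03450, AT1G13640, AT1G56720 and AT5G59330, with r from 0.989 to 0.998. Of these 8, AT5G59330 also rose between the genotypes, by 0.93 (limma, adjusted p = 0.0317), and the other 7 had differences from -0.30 to 0.29 that did not pass. AUR2, a mitotic Aurora kinase, read 7.38, 6.79 and 7.52 in atrap, against 7.20, 6.89 and 6.72 in WT. These 8 probe sets were chosen for the array order of the 4 genes, so that sharing it is no separate result.

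Partners and upstream pathways were covered thinly, since a gene counts as measured only where the gene table pairs a probe set with it alone. Genes not counted may still have a probe set on the array. Of 10 TGA factors and 5 TOPLESS corepressors, 0 had a probe set of 1 gene. Of 24 nitrate genes, 2 were measured and 0 passed by limma (1 at an unadjusted p under 0.05). AT1G68670 had a difference of 0.36 and AT1G25550 of 0.06 (limma, adjusted p = 0.148 and 0.855). Of 10 type-A response regulators, which rise in response to cytokinin and dampen its signal, 2 were measured. RR16 fell by 0.53 on the log2 scale (standard error 0.12, limma, adjusted p = 0.029). It read 9.37, 9.17 and 9.32 in atrap, against 9.94, 9.91 and 9.59 in WT. Its call was lost when any 1 of 5 arrays was left out. The other measured gene of that list did not pass. As background, 13.1% of all probe sets passed and 6.41% fell. With 2 genes measured of each list, nothing is read about either pathway.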

How the data were processed

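The authors deposited 1 value per probe set and array, made with RMA, as the submitters' processing notes name it. These deposited values are on a log2 scale, judged from their range. Which software was used is not given in the sources. Sample titles gave the groups and replicate numbers. After 64 control probe sets were left out, 22746 were fitted with limma 3.58.1 in R 4.3.3 (lmFit, eBayes, two-sided, Benjamini-Hochberg adjustment over all 22746, threshold 0.05). Neither a filter nor a further normalization was applied. A gene table paired 13513 probe sets with 1 gene, 13436 of them found in a table of assembly TAIR10.1 used for names and gene order. That gene table paired 503 probe sets with several genes and gave the rest of the 22810 no gene. A gene left out of the counts may therefore still have a probe set on the array. Where a gene had more than 1 probe set of its own, the one with the highest mean stood for it. The p-values and standard errors rest on the spread between 3 arrays a genotype, which eBayes moves towards a value shared by all probe sets. Only the unmoderated test uses the spread of the arrays alone.

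The 4 genes, the gene lists and the tests were chosen with earlier results of these data known. Named were the 4 genes, all other measured glutaredoxins and neighbours, up to 4 calls (or the 2 smallest p) of each other list, and the 8 most alike probe sets of each kind. Simulated comparisons of atrap against WT covered 22746 probe sets, 200 of them changed, with noise drawn independently for each probe set and array. Of the changes of 0.5, 1 and 2 log2 units, 30.3%, 80.6% and 95.3% were recovered, with 4.45% of calls false. In the real arrays many probe sets depart together, so that these shares are not the error rates of the real comparison. Alternatives were a replicate block, quantile normalization, median centring, a filter at log2 6, an intensity trend, an unmoderated test, an adjusted p of 0.01 and leaving out each array. Summaries used Python 3.11.15, numpy 2.4.6 and pandas 2.3.3, figures matplotlib 3.10.9. No sequences or coordinates are printed. Same-numbered arrays had deviations correlating at 0.13, 0.02 and -0.15.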

Additional observations from a re-analysis of the deposited data

How the results depend on the processing

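The differences of the 4 genes kept their direction under quantile normalization and median centring, where they moved by less than the spread between arrays. The balanced replicate block cannot move them. They also stayed positive with any 1 array left out, with ranges of 2.06 to 2.85 for AT4G15680, 1.61 to 2.32 for AT4G15690, 1.44 to 2.27 for AT4G15700 and 0.85 to 2.25 for AT3G62950. The filter at log2 6 kept 2 of them, AT4G15680 and AT4G15690. No probe set paired with several genes includes any of the 4, so that alternative gave no value. Over all probe sets 2981 calls became 48 with the unmoderated test, 350 at an adjusted p of 0.01, and 350 to 3863 with 1 array left out. The 3 calls among 13 other CC-type genes became 0 with the unmoderated test and at 0.01, and 0 to 5 with 1 array left out. The 2 CPYC- and CGFS-type calls became 1 under median centring, 0 with the unmoderated test and at 0.01, and 0 to 2 with 1 array left out. The 1 neighbour call became 2 under median centring, 0 with the unmoderated test and at 0.01, and 0 to 1 with 1 array left out. The drop at 0.01 is given by the threshold itself. For the other changes the cause was not tested. Of 14 called genes outside the 4, 14 lost the call under at least 1 alternative: 14 with the unmoderated test, 13 at an adjusted p of 0.01, 13 without atrap replicate 1, 12 without WT replicate 2, 9 without atrap replicate 3, 7 without WT replicate 3, 2 when atrap replicate 2 was left out and 1 each when WT replicate 1 was left out and under median centring. The direction reversed in 0 of the 14 and in 0 of the 4 genes, while 7 named genes that did not pass changed sign under at least 1 alternative. The replicate numbers gave no clear sign of pairing, and the replicate block left 3 of 3 other CC-type calls, 2 of 2 CPYC- and CGFS-type calls and 1 neighbour call, with 2101 calls over all probe sets. It ended 3 of the 14, those of RR16, RR18 and ty2 (limma, adjusted p = 0.051, 0.0727 and 0.0511). The number of arrays limits the precision, and dim probe sets such as AT3G62950 are compressed.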

Other observations

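Genes of the glutathione and thioredoxin systems outside the glutaredoxins were measured beside the 4 genes. Of 62 genes whose names hold the word glutathione, among them glutathione transferases, which conjugate glutathione to other compounds, 15 had a probe set of 1 gene. Of these, 0 rose, 4 fell and 11 did not pass, with a median difference of -0.05, where 6.41% of all probe sets fell. GSTU20 read 10.99, 11.51 and 11.01 in atrap, against 11.68, 12.27 and 12.21 in WT (difference -0.88, limma, adjusted p = 0.031). GSTF4, GSTU23 and GSTL3 had differences of -0.83, -0.80 and -0.61 (limma, adjusted p = 0.0113, 0.00571 and 0.0155). The call of GSTU20 was lost without atrap replicate 1 or 3 or WT replicate 2 or 3, that of GSTL3 without atrap replicate 1 or 3 or WT replicate 2, and that of GSTF4 without atrap replicate 1. The glutathione reductases GR1 and GR had differences of -0.05 and 0.07 and did not pass (limma, adjusted p = 0.831 and 0.647).

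Of 40 genes whose names hold the word thioredoxin, 8 had a probe set of 1 gene, of which 2 rose and 6 did not pass. Over all probe sets, 6.70% rose. NTRC, a plastid thioredoxin reductase with its own thioredoxin domain, read 11.40, 11.30 and 11.20 in atrap, against 10.98, 10.80 and 10.71 in WT (difference 0.47, limma, adjusted p = 0.0249). The thioredoxin gene ty2 rose by 0.47 (limma, adjusted p = 0.0207). Both calls were lost without atrap replicate 1 or 3 or WT replicate 2 or 3. Of 65 genes named as response regulators or for cytokinin, 6 had a probe set of 1 gene. Of these RR16 fell, RR18 rose by 0.31 (limma, adjusted p = 0.0373) and 4 did not pass, beside 13.1% of all probe sets past the threshold. The call of RR18 was lost when any 1 of 5 arrays was left out, all but WT replicate 1. NRT2.5, a nitrate transporter, had a difference of 0.07 (limma, adjusted p = 0.616). It was 1 of 29 genes whose names hold nitrate or nitrite and the only one with a probe set of 1 gene.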
